A study of Mus musculus with 9 samples.

Results

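Open chromatin inside the bodies of protein-coding genes, away from either end of any such gene, was described in mouse B16 melanoma. The 9214 most significant peaks were taken from each of 9 ATAC-seq peak lists, and peaks that overlapped were merged into 15664 regions on chromosomes 1 to 19 and X. Of these, 3905 regions (24.9%) overlapped a coding gene and lay more than 1 kb from every coding gene end, 8589 lay within 1 kb of an end, and 3170 were intergenic. The rule used position and not the level of any group. Regions just inside the 1 kb limit (1000 to 1100 bp from an end, 62 regions) had a median width of 697 bp and were called in 5.02 libraries on average. Regions just outside it inside genes (900 to 1000 bp, 48 regions) had a median width of 581.5 bp and 4.83 libraries.

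ATAC-seq marks accessible DNA with a transposase that inserts sequencing adaptors where chromatin is open. Each group had 3 libraries, all made from tumour cells that had been grown in mice and sorted after harvest on day 15. The group B16_IFNy was B16, a mouse melanoma line, exposed to IFNy (interferon gamma) in chronic treatment before injection, for 2 weeks in replicates 1 and 2 and for 3 weeks in replicate 3. The group strain 499 was a resistant strain labelled 499 with no treatment, and B16 untreated was the B16 strain with no treatment. The labels do not tell whether replicates are different mice, and the p-values cover only the spread between these libraries. The labels do not say how cells were sorted, whether tumours were pooled or how strain 499 was derived, and a resistant strain is 1 line whose own history cannot be told apart from resistance. The series title places the work in tumour interferon signalling and resistance to immune checkpoint blockade.

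Open regions inside genes are of at least 2 kinds. Some are promoters of shorter transcripts that begin inside the longest annotated gene, and such promoters are often rich in CG pairs and in GC boxes, the sites of SP and KLF factors. Others are enhancers in introns, which bind lineage and signal factors, are commonly active in some cell states and not others, and can act on the host gene or on a distant one.

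The sequences of 8 annotated internal starts that lie in open gene-body regions follow, since the results below turn on this class of region. They were taken from RefSeq for GRCm38.p6, run from 250 bases before to 50 after an annotated start, and are written 5′ to 3′ on the gene's strand. Capitals mark the GC box (GGGCGG or its complement) and, in Fgd4, also one AP-1 site (TGANTCA). The first 4 were in regions called in all 9 libraries, and the last 4 were in regions gained or lost between groups, as defined further on. Kifap3 encodes a kinesin-associated adaptor, Hdac4 a histone deacetylase, Kdm4c a histone demethylase, Fgd4 an activator of the small GTPase Cdc42, Map2k5 the kinase MEK5, Hip1 an endocytic adaptor, Gata2 a zinc-finger transcription factor and Nt5c3 a nucleotidase. The windows are chr1:163779333-163779632 (plus strand) for Kifap3, chr1:92180292-92180591 (minus) for Hdac4, chr4:74251629-74251928 (plus) for Kdm4c, chr16:16560170-16560469 (minus) for Fgd4, chr9:63377853-63378152 (minus) for Map2k5, chr5:135489180-135489479 (minus) for Hip1, chr6:88198414-88198713 (plus) for Gata2 and chr6:56901837-56902136 (minus) for Nt5c3.
Kifap3: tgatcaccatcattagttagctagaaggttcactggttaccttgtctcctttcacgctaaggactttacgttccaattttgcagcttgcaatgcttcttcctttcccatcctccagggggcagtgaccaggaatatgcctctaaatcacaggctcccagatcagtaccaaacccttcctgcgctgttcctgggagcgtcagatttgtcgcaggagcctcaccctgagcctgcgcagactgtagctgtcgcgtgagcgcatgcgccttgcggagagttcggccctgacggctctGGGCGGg
Hdac4: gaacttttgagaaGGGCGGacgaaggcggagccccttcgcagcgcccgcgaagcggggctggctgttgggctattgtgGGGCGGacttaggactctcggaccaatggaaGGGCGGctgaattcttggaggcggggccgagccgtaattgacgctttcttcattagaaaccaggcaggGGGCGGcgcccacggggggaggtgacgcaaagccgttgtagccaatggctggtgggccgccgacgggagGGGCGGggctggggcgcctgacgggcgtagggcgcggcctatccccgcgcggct
Kdm4c: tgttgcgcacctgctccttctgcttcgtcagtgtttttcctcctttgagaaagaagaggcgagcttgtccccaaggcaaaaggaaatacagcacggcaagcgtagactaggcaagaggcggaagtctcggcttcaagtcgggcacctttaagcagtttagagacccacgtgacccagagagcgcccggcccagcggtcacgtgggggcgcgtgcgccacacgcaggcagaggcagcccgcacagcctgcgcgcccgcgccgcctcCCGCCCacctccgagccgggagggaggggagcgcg
Fgd4: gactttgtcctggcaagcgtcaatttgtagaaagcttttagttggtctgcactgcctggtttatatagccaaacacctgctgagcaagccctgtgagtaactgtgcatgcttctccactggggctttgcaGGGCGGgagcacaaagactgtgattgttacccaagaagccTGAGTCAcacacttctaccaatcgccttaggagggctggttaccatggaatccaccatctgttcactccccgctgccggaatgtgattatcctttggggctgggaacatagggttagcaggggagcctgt
Map2k5: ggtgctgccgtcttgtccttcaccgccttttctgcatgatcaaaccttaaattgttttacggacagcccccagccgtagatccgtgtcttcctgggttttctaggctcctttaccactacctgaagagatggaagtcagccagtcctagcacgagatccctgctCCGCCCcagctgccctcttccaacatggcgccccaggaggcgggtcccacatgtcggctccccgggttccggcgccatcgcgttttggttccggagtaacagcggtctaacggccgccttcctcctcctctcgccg
Hip1: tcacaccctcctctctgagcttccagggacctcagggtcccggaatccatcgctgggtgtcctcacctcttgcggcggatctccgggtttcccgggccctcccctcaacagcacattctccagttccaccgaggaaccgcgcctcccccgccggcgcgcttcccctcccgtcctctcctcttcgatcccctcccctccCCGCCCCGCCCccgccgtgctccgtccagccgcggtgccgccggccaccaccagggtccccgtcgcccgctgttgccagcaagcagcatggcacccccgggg
Gata2: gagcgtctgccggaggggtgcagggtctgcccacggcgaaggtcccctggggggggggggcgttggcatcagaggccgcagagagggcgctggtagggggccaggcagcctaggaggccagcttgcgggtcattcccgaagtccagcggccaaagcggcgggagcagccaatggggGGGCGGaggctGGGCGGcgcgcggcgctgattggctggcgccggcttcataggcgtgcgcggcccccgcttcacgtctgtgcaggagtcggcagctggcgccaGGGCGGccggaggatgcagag
Nt5c3: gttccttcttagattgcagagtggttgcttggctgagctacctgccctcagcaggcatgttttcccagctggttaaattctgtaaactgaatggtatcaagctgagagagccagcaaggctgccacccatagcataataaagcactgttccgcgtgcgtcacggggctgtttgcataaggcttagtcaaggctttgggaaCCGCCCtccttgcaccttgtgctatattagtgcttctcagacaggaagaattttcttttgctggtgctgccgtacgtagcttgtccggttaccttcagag
The GC content of these windows lay between 50% (Nt5c3) and 73.7% (Gata2). The Hdac4 window held 5 GC boxes and the Gata2 window 3, whereas Kifap3, Kdm4c, Map2k5 and Nt5c3 held 1 each. In Hip1 the 2 boxes overlapped.

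The libraries differed in ways that touch every result. Per library, the deposited lists held 11179 to 16229 peaks on these chromosomes in B16_IFNy, 9214 to 15382 in strain 499 and 15039 to 25357 in B16 untreated. The shortest peak was at least 150 bp in B16_IFNy replicate 3, strain 499 replicate 3 and B16 untreated replicates 1 and 3, and shorter in the other 5 libraries. The labels name no batch, and these 2 classes of shortest peak were used as a technical split. Of 7 melanocyte and melanoma markers 5 had an open region somewhere, Mitf and Pmel in all 9 libraries, while Sox10 and Mlana had none. Leukocyte markers (1 of 6 with a region, Ptprc at 0), fibroblast markers (2 of 4) and endothelial markers (2 of 4) had summed calls of 0 to 2 per library. The melanoma markers had summed calls of 5 to 8 in B16_IFNy, 5 to 6 in strain 499 and 6 to 8 in B16 untreated. In such bulk samples, fewer cells of a type and less open chromatin per cell cannot be told apart.

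Gene-body regions were spread over 2793 genes, which is 14.6% of the 19187 coding genes longer than 2 kb. A single region was found in 2097 genes, 2 regions in 443, and 3 or more in 253 genes, which together held 958 regions (24.5%). The host genes were long, with a median of 65246 bp, against 17329 bp for all coding genes. The Spearman correlation between region number and gene length was 0.372 across host genes, which is a description, since genes are not independent replicates. Of the 3905 regions, 39 lay in bodies of more than 1 overlapping gene. The median distance to the nearest coding gene end was 14673 bp and the largest was 983935 bp. In all, 577 regions (14.8%) lay within 2.5 kb of an end, 2323 (59.5%) lay over 10 kb away and 361 (9.24%) over 100 kb away. Density over the eligible gene-body sequence was 3.96 regions per Mb. It was 5.26 on chromosome 6 and 5.19 on chromosome 11, against 1.79 on chromosome 14 and 1.05 on X.

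Fewer libraries called a given gene-body region than a given gene-end region. All 9 libraries called 485 gene-body regions (12.4%), and a single library called 1381 (35.4%). Among gene-end regions the shares were 43.6% and 8.76%, and among intergenic regions 7.92% and 40.7%. Median width was 481 bp for gene-body regions, 821 bp for gene-end regions and 416 bp for intergenic ones, and gene-body widths ran from 97 to 2996 bp. Width followed the number of calls: the median was 243 bp for regions called in 1 library and 954 bp for those called in all 9. Regions that more libraries call merge more peaks and so tend to be wider by construction.

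**Figure D1:**
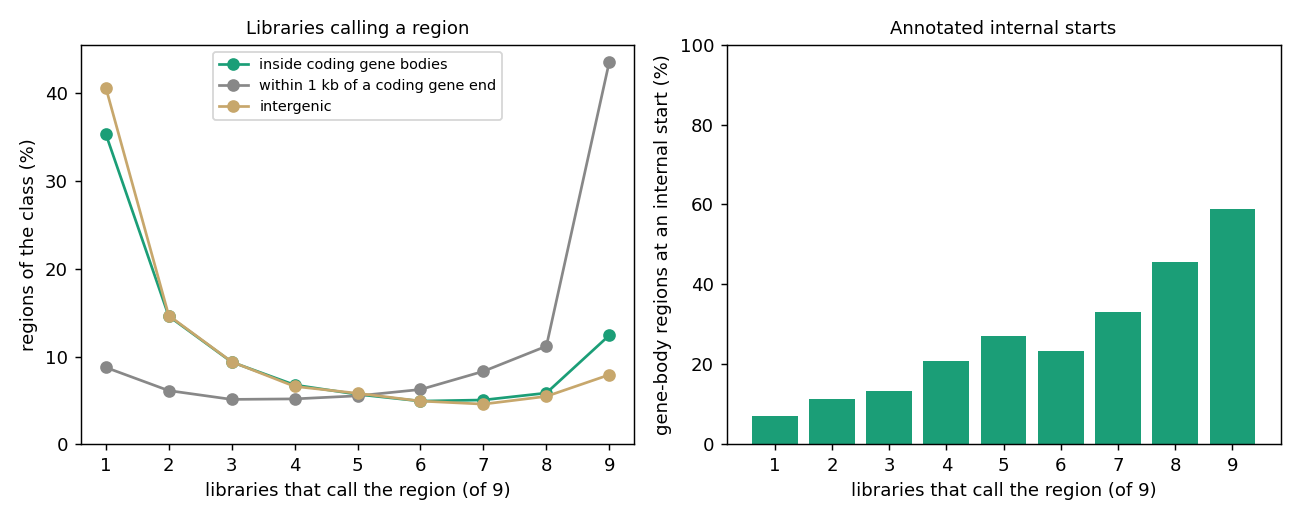
Left, percent of regions of each class (y axis) by the number of libraries that call the region (x axis, 1 to 9); right, percent of gene-body regions that overlap an annotated internal start of their host gene, by the same number. Gene-body regions follow the intergenic line up to 8 libraries, reach 12.4% at 9 libraries against 43.6% for gene ends, and the share at an internal start is 59.0% at 9 libraries and 7.10% at 1.

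Within each library, gene-body peaks were narrower and less significant than gene-end peaks. The ratio of median widths averaged 0.716, a log2 ratio of -0.48 ± 0.09 (SD, n = 9 libraries), and was below 1 in 9 of 9 libraries (two-sided exact sign-flip permutation test, p = 0.0039, the smallest possible). On a percentile scale, where 0 is the best-ranked peak of a list, the median rank of gene-body peaks was 18.8 ± 0.712 points further down than that of gene-end peaks (SD, n = 9; higher in 9 of 9 libraries, exact p = 0.0039). Both values are within-library differences, so both sides come from the same library.

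Annotated internal starts carried much of what was common to all libraries. Of the 3905 regions, 827 (21.2%) overlapped a start window of their own host gene, and 57 overlapped only a start of another gene. The 78 regions on chromosome 18 could not be matched, as that chromosome has no start windows in the table. An internal start was present in 286 of the 485 regions called in all 9 libraries (59.0%) and in 98 of the 1381 called in 1 library (7.10%). Peaks at internal starts also ranked better than other gene-body peaks of the same library, with a difference in median percentile of -20.1 ± 2.23 points (SD, n = 9; lower, and so better, in 9 of 9 libraries, exact sign-flip permutation p = 0.0039). The summit of the best peak, taken as its median over libraries, lay within 250 bp of the start in 806 of 962 pairs of window and region (83.8%). The median over pairs was -20.5 bp, where negative is upstream. These values describe where the regions lie, and wider regions overlap a window more easily.

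Only 26.2% of 3633 internal start windows were open, against 46.5% of 17412 windows near coding gene ends. Open internal windows (951) had a median GC content of 63% and an observed-to-expected CpG ratio of 0.781. Closed internal windows (2682) had 51.7% and 0.284. Open windows near gene ends (8104) had 62.7% and 0.824, so open internal starts had the base composition of open starts at gene ends. Exact letter matches on both strands followed this split. The GC box, GGGCGG, was in 67.1% of open internal windows, 27.2% of closed ones and 35.9% of all 32619 windows. The ETS letters CCGGAAGT were in 7.89%, 1.04% and 3.91%, the E-box CACGTG in 9.57%, 4.996% and 7.20%, and the cAMP response element TGACGTCA in 2.94%, 1.01% and 1.80%. Open internal windows had the lowest share for TATAAA (4.73%, 13.5% and 13.7%) and for another E-box, CATGTG (7.78%, 15.3% and 14.2%). For AP-1, TGANTCA, the shares were 5.36%, 8.84% and 7.85%. No motif's letters contain another's, and a match is a description of the window and not a bound site.

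Along the host gene, regions lay more often near the 5′ end. With genes divided into 5 equal parts from 5′ to 3′, 27.2%, 22.4%, 18.8%, 16.9% and 14.6% of the 3189 regions with a known strand fell in each. For the 2368 regions away from internal starts the shares were close to even, at 19.7%, 21.3%, 20.9%, 19.6% and 18.5%. For the 403 regions called in all 9 libraries they were 43.2%, 21.8%, 15.1%, 14.1% and 5.71%.

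Single start regions among those called in all 9 libraries ranked as follows. They were picked from that set, so their calls in every library are given by the choice. The Kifap3 start region (chr1:163779221-163780047) ranked 44, 29 and 69 in B16_IFNy replicates 1 to 3, 106, 74 and 30 in strain 499, and 79, 18 and 34 in B16 untreated. The Hdac4 start region (chr1:92179695-92181109) ranked 557, 567 and 263 in B16_IFNy, 654, 335 and 652 in strain 499, and 1045, 646 and 448 in B16 untreated. For both, the groups overlapped. The Kdm4c start region (chr4:74251393-74252644) ranked between 504 and 3432 over the 9 libraries. The Fgd4 start region (chr16:16559659-16560522), whose window has both an AP-1 match and a GC box, ranked 1568, 2088 and 896 in B16_IFNy, 4276, 5354 and 615 in strain 499, and 1742, 460 and 717 in B16 untreated. Its 2 weakest ranks were strain 499 replicates 1 and 2. Myo5a, the myosin that carries melanosomes, had a start region (chr9:75070837-75072012) 1038 bp from the nearest coding gene end, which ranked between 1649 and 4512 in all 9 libraries.

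The best-ranked gene-body regions of all were narrow and were not at internal starts. By mean rank over the 9 libraries, the first 5 lay in Zc3h7a (348 bp, ranks 4 to 8), in the overlapping genes Cmss1 and Filip1l (363 bp, 5 to 11), in Chl1 (225 bp, 4 to 13), in Camk1d (297 bp, 9 to 15) and in Cdk8 (358 bp, 9 to 18). Each was called in all 9 libraries and lay at least 7359 bp from any coding gene end. Widths of 225 to 363 bp are below the median of 954 bp for gene-body regions called in all 9 libraries. Whether regions of repeated sequence were removed upstream is not stated in the sources used here, and a role of such sequence in these 5 regions was not tested.

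The first question the design puts is whether B16_IFNy and strain 499 differ from B16 untreated in how many gene-body regions lists of equal length call. The calls numbered 1550, 1473 and 1751 in B16_IFNy, 1417, 1510 and 1577 in strain 499, and 1672, 1724 and 1831 in B16 untreated. As a share of a library's called regions these were 17.0%, 16.4% and 19.1% in B16_IFNy, 15.7%, 17.1% and 17.2% in strain 499, and 18.2%, 18.8% and 19.9% in B16 untreated. All 3 strain 499 libraries lay below all 3 untreated ones, while B16_IFNy replicate 3 lay among the untreated ones. The mean share was 17.5% ± 1.45 in B16_IFNy, 16.7% ± 0.838 in strain 499 and 18.96% ± 0.860 in B16 untreated (SD, n = 3 each). In lists of equal length the classes of region trade against each other. In the same order of groups, the mean share of intergenic regions was 12.3%, 12.3% and 13.7%, lower in the same direction. That of gene-end regions was 70.2%, 71.0% and 67.4%. Neither of these 2 shares was tested between groups. For B16_IFNy and strain 499 pooled, the share differed by -1.87 points from B16 untreated (exact permutation test, two-sided, with 84 arrangements, p = 0.0714, adjusted p = 0.0952 over the 4 planned measures). Within shortest-peak classes the difference was -1.56 points (exact p = 0.1). The share did not pass the 0.05 threshold, and an exact test of 3 libraries against 3 cannot go below p = 0.1. With all deposited peaks, whose number differs between libraries, the pooled difference was -8.26 points (exact permutation p = 0.0119).

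Within lists of equal length, the number of called regions at internal starts varied little between libraries. The number of other gene-body regions varied more. Regions at internal starts numbered 567, 566 and 569 in B16_IFNy, 562, 539 and 558 in strain 499, and 546, 562 and 557 in B16 untreated. Those away from internal starts numbered 983, 907 and 1182 in B16_IFNy, 855, 971 and 1019 in strain 499, and 1126, 1162 and 1274 in B16 untreated. All 3 strain 499 counts were below all 3 untreated counts, and B16_IFNy replicate 3 again lay among the untreated ones. The pooled difference was -201 regions away from internal starts (exact permutation p = 0.0595; within shortest-peak classes -166, p = 0.0667) and 5.17 regions at internal starts (p = 0.560). Internal starts thus made up 36.4% ± 2.51 of the gene-body calls in the 6 libraries of B16_IFNy and strain 499, and 31.9% ± 1.27 in B16 untreated (SD; difference 4.48 points, exact permutation p = 0.0595). None of these passed the threshold. With libraries exchanged only within replicate number instead, the exact permutation p was 0.037 for the count away from starts and for the share. This is the smallest possible with 27 arrangements. For the count at starts it was 0.630. These measures were chosen after the counts were seen. Adjusted over all 13 pooled measures, the p without that limit on exchange was 0.111 for the count away from starts and 0.606 for the count at starts. Leaving out 1 library at a time gave differences away from starts of -238 to -154 regions (exact permutation p = 0.0179 to 0.143). The -238 was the value without B16_IFNy replicate 3.

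**Figure D2:**
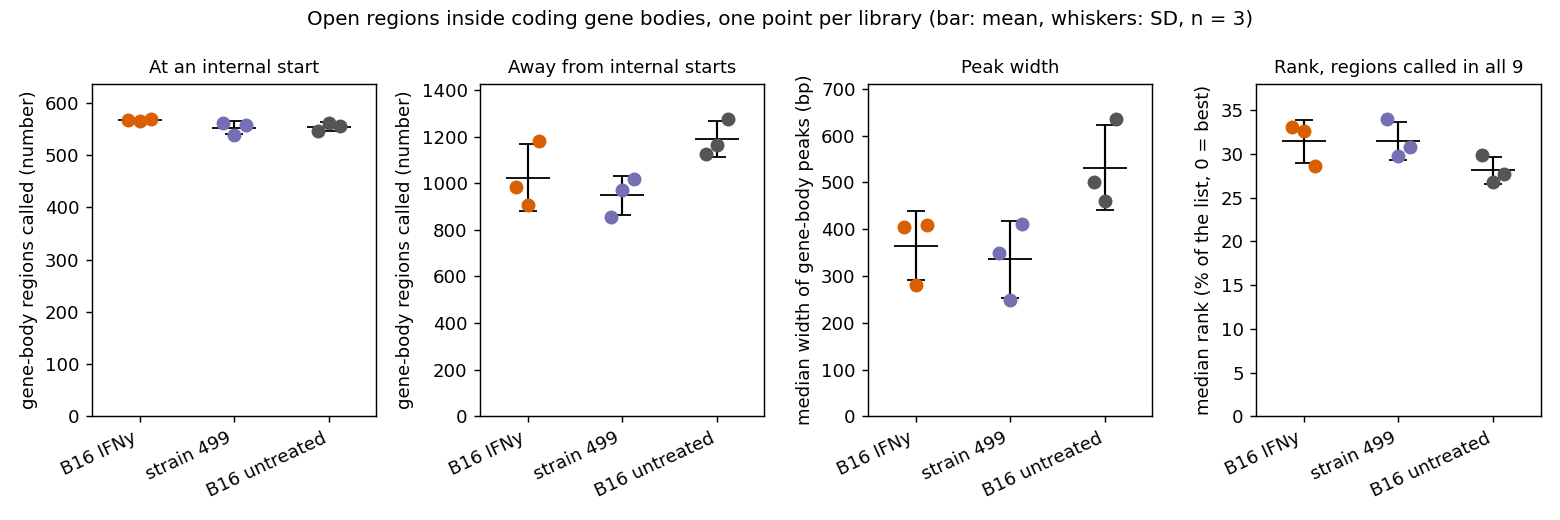
Each point is 1 library in groups B16 IFNy, strain 499 and B16 untreated (x axis, left to right), with the mean and SD of 3 libraries; the panels give the number of gene-body regions called at and away from internal starts, the median width of gene-body peaks in bp, and the median rank as percent of the list for regions called in all 9 libraries. Counts at internal starts lie between 539 and 569 in every group, while all widths in B16 IFNy and strain 499 (248 to 411 bp) lie below those in B16 untreated (460 to 635 bp).

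Peak width separated the groups most clearly. The median width of gene-body peaks was 404.5, 280 and 410 bp in B16_IFNy, 349.5, 248 and 411 bp in strain 499, and 500, 460 and 635 bp in B16 untreated. All 6 libraries of the first 2 groups were narrower than all 3 untreated libraries. The means were 365 ± 73.5 bp in B16_IFNy and 336 ± 82.3 bp in strain 499, against 532 ± 91.7 bp in B16 untreated (SD, n = 3 each). The pooled difference was -181 bp (exact permutation p = 0.0119, the smallest possible with 84 arrangements; adjusted p = 0.0476 over the 4 planned measures and 0.0516 over all 13). Within shortest-peak classes it was -148 bp (exact p = 0.0333). Without B16 untreated replicate 3, the difference was -131 bp with an exact permutation p of 0.0714. With all deposited peaks it was -56.25 bp (exact permutation p = 0.262).

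The width difference was shared with gene ends. Gene-end peaks were 229 bp narrower by the same comparison (exact permutation p = 0.0119). The ratio of gene-body to gene-end width differed between the pooled 6 libraries and B16 untreated by -0.05 on the log2 scale (exact permutation p = 0.488). With libraries exchanged only within replicate number, the exact permutation p for this ratio was 0.037, the smallest possible with 27 arrangements. Within shortest-peak classes the difference in this ratio was 0.00104. The lower width was also present over the 485 gene-body regions called in all 9 libraries, whose median width was 599, 443 and 602 bp in B16_IFNy, 523, 403 and 586 bp in strain 499, and 696, 696 and 837 bp in B16 untreated (difference -217 bp, exact permutation p = 0.0119). Relative depth was the lowest background recovered from the peaks' fold and p, divided by the width of the library's shortest peak. It was 7.59 to 9.17 fragments per kb in B16_IFNy, 8.68 to 11.1 in strain 499 and 8.14 to 10.8 in B16 untreated. The shortest peak, 95 to 185 bp over the libraries, was taken as the fragment length and also defines the shortest-peak classes. The pooled 6 libraries differed from B16 untreated by -0.364 fragments per kb (exact permutation p = 0.726). The part of library quality in the widths was not tested.

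Ranks moved little. The median gene-body peak stood at percentile 63.3, 62.5 and 62.0 in B16_IFNy, 64.2, 63.1 and 63.3 in strain 499, and 63.2, 62.5 and 62.0 in B16 untreated, with a pooled difference of 0.457 points (exact permutation p = 0.452). Where a call needed a peak over 50% of the region, the difference was -2.30 points (exact permutation p = 0.0476). Over the regions called in all 9 libraries the median was 33.1, 32.7 and 28.6 in B16_IFNy, 34.0, 29.7 and 30.8 in strain 499, and 29.9, 26.8 and 27.7 in B16 untreated. Here B16_IFNy and strain 499 pooled stood 3.35 points further down the lists (exact permutation p = 0.0595, adjusted p = 0.0952 over the 4 planned measures). With libraries exchanged only within replicate number, the exact permutation p was 0.037, the smallest possible with 27 arrangements. For the median over all gene-body peaks it was 0.444. The groups overlapped at B16_IFNy replicate 3 and strain 499 replicate 2. With peaks ranked by fold enrichment the difference was -0.653 points (exact permutation p = 0.583).

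Genes with several open regions in their bodies were long. The 253 genes with 3 or more regions had a median length of 190579 bp, against 17329 bp for all coding genes, and 68 of them had at least 1 region called in all 9 libraries. The number of genes with 2 or more called regions was 148, 133 and 198 in B16_IFNy, 125, 158 and 148 in strain 499, and 190, 179 and 193 in B16 untreated. The difference was -35.7 genes (exact permutation p = 0.0833), and B16_IFNy replicate 3 was the highest of all.

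Sfi1, which encodes a centrosomal protein that binds centrin, had the most regions, 17 within 71498 bp on chromosome 11, or 23.8 per 100 kb. The 9214 best peaks gave it 2, 3 and 2 regions in B16_IFNy, 11, 13 and 4 in strain 499, and 2, 2 and 2 in B16 untreated. Of the 17 regions, 2 had a call in all 9 libraries and 9 had a call in a single library. The excess was in strain 499 replicates 1 and 2. In the full lists, which differ in length, Sfi1 held 11, 11 and 2 peaks in B16_IFNy, 20, 14 and 6 in strain 499, and 9, 22 and 11 in B16 untreated, so B16 untreated replicate 2 had the highest count of all. Leaving out 1 library at a time gave 12 to 18 regions. Whether repeated sequence was removed before peak calling is not given in the sources used here, and its part at Sfi1 was not tested.

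Sox5, a SOX factor of the neural crest and melanocyte lineage, had 12 regions over 953863 bp, with 5, 4 and 3 called in B16_IFNy, 3, 5 and 6 in strain 499, and 4, 6 and 7 in B16 untreated. Its region in all 9 libraries (chr6:144165797-144166866) ranked 5881, 1792 and 348 in B16_IFNy, 2654, 3348 and 611 in strain 499, and 360, 556 and 1349 in B16 untreated. The groups overlapped, and 5 of the 12 regions were seen in 1 library. None of the 12 lay at an internal start.

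Vgll4, a cofactor of the TEAD factors of the Hippo pathway, had 5 regions with few missing calls, with 5, 5 and 5 called in B16_IFNy, 4, 5 and 4 in strain 499, and 5, 5 and 5 in B16 untreated. Of its 5 regions 4 were called in all 9 libraries, none at an internal start. The strongest (chr6:114888798-114889409) ranked 225, 1166 and 86 in B16_IFNy, 6354, 2241 and 1028 in strain 499, and 278, 670 and 531 in B16 untreated. In 2 of 3 strain 499 libraries it ranked below every B16_IFNy and B16 untreated library.

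Mical3, a redox enzyme that acts on actin, had 9 regions. Its region at chr6:121109540-121110620 ranked between 169 and 1943 in all 9 libraries, and another at chr6:121002649-121003698 ranked 541, 2760 and 737 in B16_IFNy, 1321 and 3036 in strain 499 replicates 2 and 3, and 616, 523 and 399 in B16 untreated, with no call in strain 499 replicate 1. Pakap, the joined gene of a paralemmin and a protein kinase A anchor, had 9 regions, with 3, 1 and 3 called in B16_IFNy, 4, 3 and 3 in strain 499, and 7, 5 and 3 in B16 untreated. Nfia, a nuclear factor I gene, had 9 with 3, 3 and 2 called in B16_IFNy, 1, 1 and 4 in strain 499, and 5, 3 and 3 in B16 untreated, and none in all 9 libraries. Gse1 had 9, of which 5 were seen in 1 library.

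Stard13 had 8 regions, among them one of the best ranked of its kind (chr5:151368044-151369191), with ranks 155, 160 and 104 in B16_IFNy, 35, 72 and 186 in strain 499, and 54, 31 and 30 in B16 untreated. Frmd4a, a scaffold of cell polarity, had 8 regions, 5 of them in 1 library each. The nuclear factor Aff3, the phosphatase Ppm1h, the Notch coactivator Maml3 and Plekha5 had 7 each. Ppargc1a, the coactivator of mitochondrial genes, also had 7 but only 13 calls in all, as its regions were called in 1 to 3 libraries each. Ets1, an ETS-family factor, had 6 regions in 121580 bp, and its region at chr9:32695570-32696418 ranked 663, 2411 and 667 in B16_IFNy, 6553, 815 and 4415 in strain 499, and 349, 1532 and 2233 in B16 untreated. Ank2, a membrane anchor of the cytoskeleton, had 6.

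Tex14, a gene known from germ cells of the testis, had 6 regions that were called only in B16_IFNy replicate 3 (4 of them) and in B16 untreated replicate 3 (5). Both libraries carry replicate number 3 and are of the class with the longer shortest peak. Strain 499 replicate 3 has the same number and class and had 0 of these regions called. In the full lists Tex14 held 2, 1 and 5 peaks in B16_IFNy, 2, 0 and 2 in strain 499, and 4, 3 and 7 in B16 untreated, so most libraries had weaker peaks there. This gene was singled out after its values were seen. Among genes with 3 or more regions, Sfi1 was followed by density by Per1 (20.2 per 100 kb), Amotl2 (18.4), Ldb1 (18.0) and Kdm6b (13.7), which are short genes with 3 regions each.

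**Figure D3:**
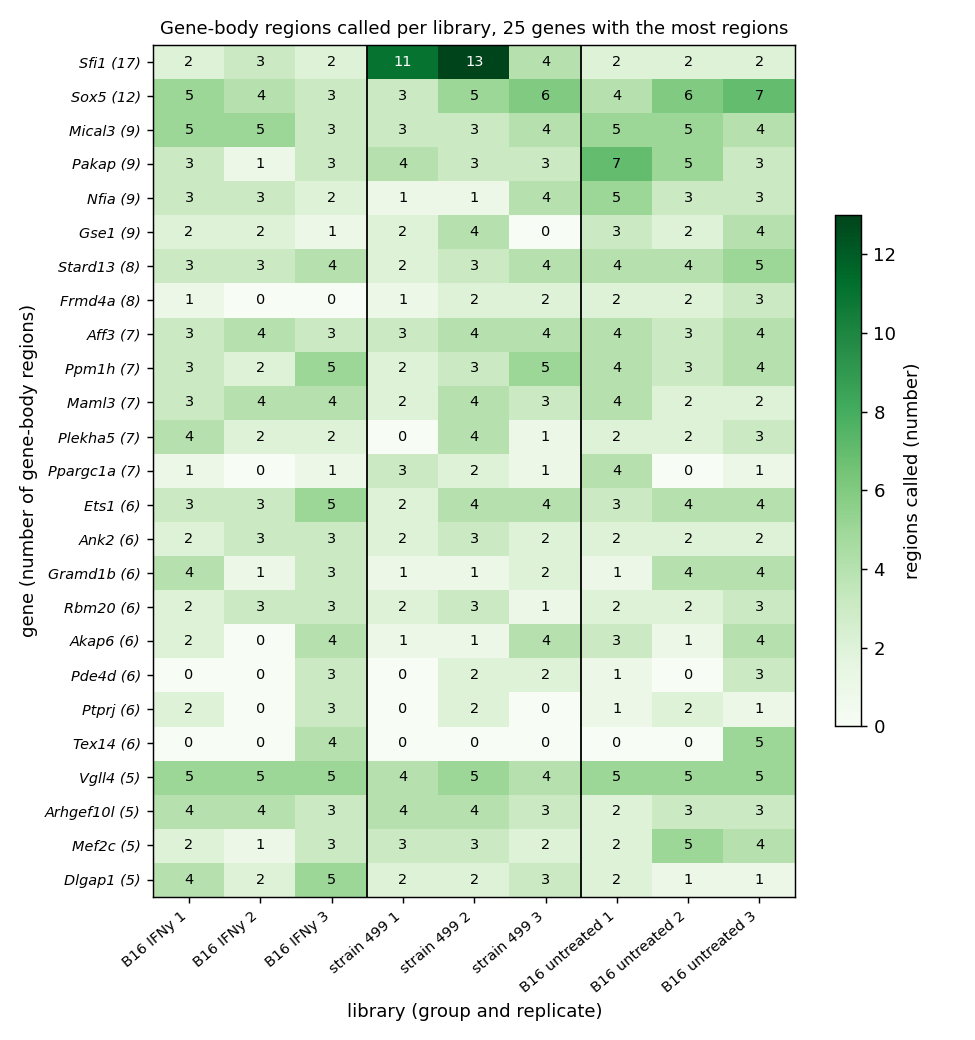
Number of gene-body regions called in each library (columns, grouped as B16 IFNy, strain 499 and B16 untreated) for the 25 genes with the most regions (rows, total in brackets); the colour scale gives the same number. Sfi1 has 11 and 13 regions in strain 499 replicates 1 and 2 and 2 to 4 elsewhere, Vgll4 has 4 or 5 in every library, and Tex14 has regions in 2 libraries only.

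Lists of genes chosen by function held gene-body regions in 2 of 16 to 20 of 28 of their members. Among melanin and melanosome genes 7 of 20 held one (median length 35780.5 bp), and among melanocyte identity factors 7 of 15 (55380 bp). Among neural crest and dedifferentiation genes 5 of 18 did (14120 bp). Of all coding genes longer than 2 kb, 14.6% held one, and the median length of all coding genes was 17329 bp. The share was 8 of 23 for AP-1 and Hippo genes (17677 bp) and 7 of 36 for interferon signalling and antigen presentation (19309 bp). It was 5 of 27 for Ras-MAPK feedback (41256 bp) and 8 of 24 for TGF-beta and BMP (69006 bp). Lists of long genes had higher shares, at 17 of 28 chromatin regulators (median length 115414 bp) and 20 of 28 adhesion genes (119416 bp). Leukocyte genes had 2 of 16 and fibroblast and endothelial genes 3 of 15. Nothing was tested over these lists.

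Mitf, the master regulator of melanocytes, had 3 regions, 2 of them in all 9 libraries. The first (chr6:97883271-97883984) ranked 3846, 3350 and 2047 in B16_IFNy, 1548, 6579 and 6258 in strain 499, and 712, 4092 and 2363 in B16 untreated. The other (chr6:97981333-97982294), 9489 bp from the nearest annotated Mitf start, ranked 7128, 6475 and 3743 in B16_IFNy, 3517, 2739 and 7114 in strain 499, and 4243, 1647 and 751 in B16 untreated. In both the groups overlapped. Tyrp1 and Dct, enzymes of melanin synthesis, and Sox10 held no gene-body region, and Pmel had 1, called in B16 untreated replicate 2 only and shared with Cdk2. Etv5, an ETS factor induced by MAPK signalling, had 1 region in all 9 libraries (chr16:22428612-22429507), with ranks 4097, 5697 and 1921 in B16_IFNy, 4695, 2078 and 576 in strain 499, and 1601, 1267 and 233 in B16 untreated. Tiam1, an activator of the GTPase Rac1, had one at chr16:90143546-90144373 that ranked 563, 1811 and 180 in B16_IFNy, 2077, 2201 and 1199 in strain 499, and 281, 209 and 385 in B16 untreated, where 2 of 3 strain 499 libraries had it further down the list than any library of the other groups.

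Among interferon and antigen presentation genes, no gene-body region was called in all 9 libraries. Cd274, which encodes PD-L1, and Jak1 and Irf1 held none. Irf2, Nlrc5, Stat3 and Stat5b had 1 region each, called in 1 or 2 libraries. Ifnar2, a chain of the type I interferon receptor, had 1 region, called in B16_IFNy replicate 3 and B16 untreated replicate 1. Sp140, a bromodomain protein of nuclear bodies, had 4 regions, of which 1 was shared with its neighbour Sp110. The shared region (chr1:85591040-85593365) ranked 7213 and 7297 in B16_IFNy replicates 1 and 2, 2895, 2627 and 3874 in strain 499, and 8639 in B16 untreated replicate 1, and was not called elsewhere. A further Sp140 region (chr1:85614557-85614831) ranked 7353 and 4145 in B16_IFNy replicates 1 and 2, 4075, 4486 and 5525 in strain 499, and was called in no B16 untreated library. The full lists held a peak there in 2 of 3 B16_IFNy libraries, 3 of 3 strain 499 libraries and 1 of 3 B16 untreated libraries. Leukocyte markers had summed calls of 0 to 1 in B16_IFNy, 0 to 1 in strain 499 and 0 in B16 untreated, and their part in this result was not tested.

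Few regions were fully gained or lost between groups, and more were lost than gained in both comparisons with B16 untreated. A gained region had a call in all 3 libraries of the first-named group and no call in the other group, and a lost region had the opposite pattern. The counts are over regions that 3 or more of the compared libraries called. In strain 499 against B16 untreated, 10 of 1547 gene-body regions were gained (0.646%) and 50 were lost (3.23%). Over all regions, 0.919% were gained and 1.52% lost. Gene-end regions were gained in 67 of 6700 and lost in 44, and intergenic ones gained in 9 of 1112 and lost in 48. In B16_IFNy against B16 untreated, 13 of 1648 gene-body regions were gained (0.789%) and 23 lost (1.40%), and over all regions 0.579% and 0.895%. Gene-end regions were gained in 39 of 6702 and lost in 24, and intergenic ones gained in 3 of 1152 and lost in 38. In strain 499 against B16_IFNy, 8 of 1443 gene-body regions were gained (0.554%) and 19 lost (1.32%), against 0.605% and 0.843% over all regions. The lost share of gene-body regions in strain 499 was above that of all regions, and the gained share below it. Against B16 untreated, the lost share of intergenic regions was higher still (4.32%). Regions called in all 9 libraries cannot be gained or lost. In strain 499 against B16 untreated they were 3745 of the 6700 gene-end regions counted and 485 of the 1547 gene-body regions counted. The first 2 comparisons share the untreated libraries, and each comparison shares a group with the others. No p is given for single regions, since 3 libraries against 3 cannot go below 0.1.

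**Figure D4:**
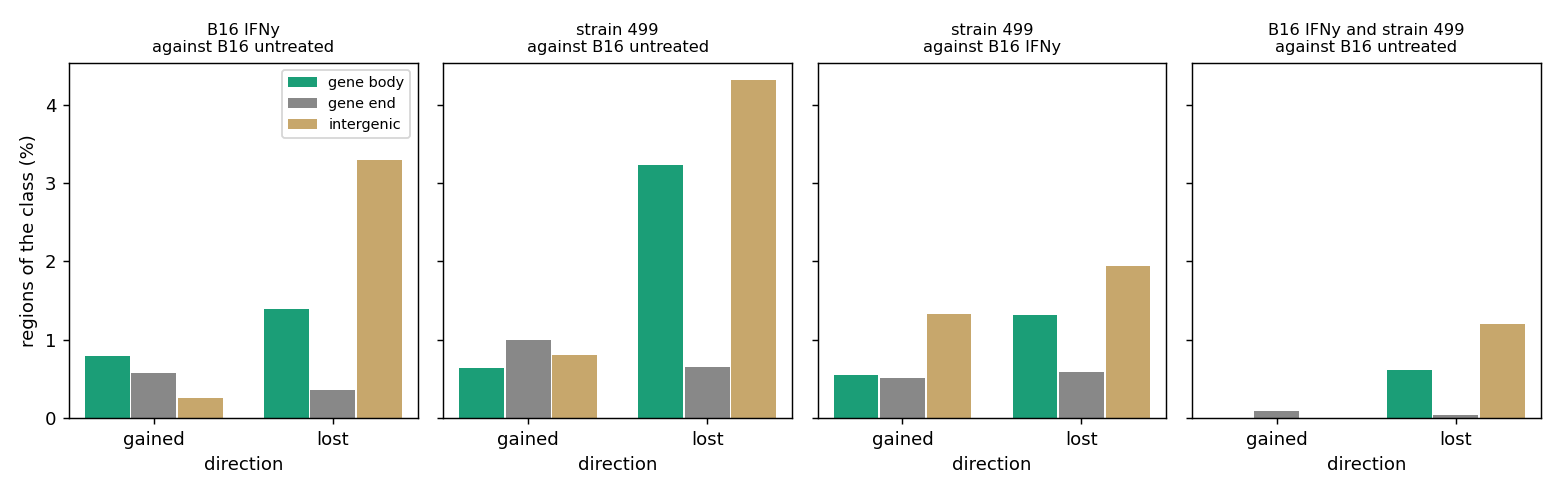
Percent of regions of each class (y axis) that were gained or lost (x axis) in the 4 comparisons of the panels. Gained means a call in every library of the first-named side and no call on the other, and lost the opposite. In the pooled panel the first-named side has 6 libraries, and 3 in the others. Gene-body regions have 3.23% lost and 0.646% gained in strain 499 against B16 untreated, and intergenic regions 4.32% lost.

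The calls rest on the cut of 9214 peaks. Of the 10 gene-body regions gained in strain 499, 10 had a peak in the full list of at least 1 untreated library, and of the 50 lost, 37 had one in a strain 499 library. In B16_IFNy it was 12 of 13 gained and 19 of 23 lost. These full lists are longest in B16 untreated. On the calling side, regions lost in strain 499 had mean ranks of 3390 to 8835 with a median of 6533 of 9214, so most were mid-list peaks or weaker. Internal starts were 6 of the 50 lost regions (12%), beside 38.1% of the regions counted. Of the 50, 42 lay over 10 kb from a gene end, beside 59.5% of all 3905 gene-body regions, a wider set than the regions counted. Of the 50, B16_IFNy called 12 in no library, 11 in 1, 23 in 2 and 4 in all 3. The 50 regions lay in 49 genes, with Dock10 holding 2.

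The 8 regions lost in strain 499 with the best ranks in B16 untreated lay in Rbms3, Ptprj, Spata21, Padi2, Fat1, Nt5c3, Ctdspl and Foxk1. The Rbms3 region (chr9:117018204-117019346), in a gene for an RNA-binding protein, ranked 4022 and 3904 in B16_IFNy replicates 2 and 3, had no call in strain 499, and ranked 5927, 1691 and 2553 in B16 untreated. In Ptprj, a receptor tyrosine phosphatase, the region chr2:90565476-90566354 ranked 6714 and 2083 in B16_IFNy replicates 1 and 3 and 4045, 3225 and 3514 in B16 untreated. The Fat1 region (chr8:44980006-44980741), in a gene for an atypical cadherin, ranked 5360, 4982 and 3866 in B16_IFNy and 2761, 6255 and 2600 in B16 untreated, with no call in strain 499, where the full lists of 2 libraries held it. Fat1 had 3 other regions, and strain 499 called each of them in 1 or 2 libraries. The Foxk1 region (chr5:142430880-142431464), in a forkhead gene, ranked 2432, 8152 and 4318 in B16_IFNy and 7509, 4920 and 2094 in B16 untreated. A neighbouring Foxk1 region (chr5:142440241-142441546) ranked between 649 and 2913 in all 9 libraries. Nt5c3 lost an internal start (chr6:56901466-56902192), called at rank 4489 in B16_IFNy replicate 3 and at 5402, 3434 and 4704 in B16 untreated, and no full strain 499 list held it.

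The best-ranked regions gained in strain 499 lay in Muc3, Sp140, Mfsd4b5, Tmem248, Scn8a, Sfi1, 1700008O03Rik and Hip1. Muc3, a mucin, had a region (chr5:137152206-137152509) that ranked 9076 in B16_IFNy replicate 1, 3055, 1817 and 5973 in strain 499, and was not called in B16 untreated. In Scn8a, a voltage-gated sodium channel, the region chr15:100983655-100984318 ranked 8687 in B16_IFNy replicate 2 and 3545, 4667 and 9180 in strain 499. The Hip1 internal start (chr5:135488612-135489524) ranked 3961 and 8480 in B16_IFNy replicates 2 and 3 and 6552, 5601 and 8692 in strain 499. It had a weaker peak in the full list of all 3 untreated libraries.

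Among regions gained in B16_IFNy against B16 untreated, the first by rank lay in Dlgap1, Pacsin1, Snd1, Map2k5, Ak4, Arsj, Rfx2 and Klhdc1, with internal starts in Map2k5, Ak4 and Klhdc1. The Map2k5 start (chr9:63377564-63378030) ranked 5911, 4898 and 7974 in B16_IFNy, 8811 and 6487 in strain 499 replicates 1 and 3, and was called in no B16 untreated library, though all 3 of their full lists held it. Ak4, a mitochondrial adenylate kinase, had its internal start (chr4:101419238-101420157) at ranks 6095, 5779 and 7290 in B16_IFNy and 8483 and 6175 in strain 499 replicates 2 and 3. Snd1, a nuclease-domain protein of RNA silencing, had a region (chr6:28842459-28842798) at 4896, 7734 and 5711 in B16_IFNy and was called in no other library, though the full lists of 1 strain 499 library and 2 B16 untreated libraries held it. Rfx2, a factor of ciliated cells, had one (chr17:56810263-56810648) at 8579, 6763 and 6052 in B16_IFNy, with weaker full-list peaks in 1 strain 499 library and all 3 B16 untreated libraries. Arsj, an arylsulfatase, had one (chr3:126385142-126385421) at 6866, 8793 and 4412 in B16_IFNy, with full-list peaks in 0 strain 499 libraries and 2 B16 untreated libraries.

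Regions lost in B16_IFNy were led by Lrrc75b, Ppp1r9a, Prkar1b, Samd4b, Stard13, Faap20, Jarid2 and Rara. The Ppp1r9a region (chr6:5110131-5110711), in the gene for the actin-binding protein neurabin, ranked 5471 in strain 499 replicate 3 and 5683, 2571 and 5476 in B16 untreated, and no B16_IFNy full list held it. In Rara, a retinoic acid receptor, the region chr11:98963481-98964237 ranked 6055 in strain 499 replicate 3 and 8360, 3260 and 7900 in B16 untreated. The Stard13 region chr5:151218668-151219332 ranked 8252, 8011 and 3913 in strain 499 and 6716, 6099 and 5318 in B16 untreated, and B16_IFNy held it in the full lists of all 3 libraries. Gata2 lost its internal start (chr6:88198399-88198843), which ranked 3702 in strain 499 replicate 1 and 7280, 6692 and 7302 in B16 untreated.

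In B16_IFNy and strain 499 together against B16 untreated, 12 of 1954 gene-body regions were lost (0.614%) and 0 gained. Here a gain needed a call in all 6 libraries of the pooled groups, and a loss a call in the 3 untreated libraries. The gained and lost counts thus rest on unlike requirements. Over all regions 0.300% were lost and 0.0655% gained. Gene-end regions were lost in 3 of 7312 and gained in 7, and intergenic ones lost in 17 of 1416 and gained in 0. The 12 regions lay in 12 genes: Prkar1b, Samd4b, Jarid2, Marchf3, Zkscan6, Pip4p2, Anxa2, Rbms1, Pakap, Dock10, Tcf7l2 and P4ha2. The Prkar1b region (chr5:139051315-139051812), in a gene for a regulatory subunit of protein kinase A, ranked 6054, 5459 and 4904 in B16 untreated. Jarid2, a partner of the Polycomb complex PRC2, lost chr13:44907702-44908235, which ranked 5829, 8222 and 4942 in B16 untreated. A further Jarid2 region (chr13:44869575-44870018) ranked 63, 360 and 17 in B16_IFNy, 25, 30 and 20 in strain 499, and 16, 57 and 20 in B16 untreated. The Anxa2 region (chr9:69467627-69467982), in the gene of a membrane-binding annexin, ranked 7793, 7223 and 8218. Only the Jarid2 and Anxa2 regions had no peak in the full list of any of the 6 other libraries. Tcf7l2, a factor of Wnt signalling, and P4ha2, a collagen prolyl hydroxylase, were the last 2 of the 12 by rank.

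Strain 499 and B16_IFNy differed directly in the 8 gained and 19 lost gene-body regions above. Gained in strain 499 were regions in Mef2c, Metap2, Sfi1, Idh2, Stard13, Mnat1, Cables1 and Fez1, and the first lost ones lay in Fat1, Foxk1, Mta1, Dcakd, Spire1, Rad18, Snd1 and Hivep2. The Mef2c internal start (chr13:83523689-83524905), in a gene for a MADS-box factor that also acts in the neural crest, ranked 4845, 858 and 8086 in strain 499 and had no call in B16_IFNy, while B16 untreated replicates 2 and 3 had it at 6077 and 5422. Idh2, the mitochondrial isocitrate dehydrogenase, had an internal start (chr7:80114473-80115670) at 3306, 7204 and 8671 in strain 499 and at 8327 and 8671 in B16 untreated replicates 2 and 3. The Mnat1 internal start (chr12:73123634-73124010), in the gene of an assembly factor of the CDK-activating kinase, ranked 8698, 7045 and 6160 in strain 499 and was called in no other library, though the full lists of all 3 B16 untreated libraries held it. Mta1, a subunit of the NuRD complex, had a region (chr12:113132637-113133678) that strain 499 lacked also in its full lists, at 4951, 4313 and 6868 in B16_IFNy and at 2364 and 4749 in B16 untreated replicates 2 and 3. Rad18, a ubiquitin ligase of DNA damage tolerance, had one (chr6:112686351-112686996) at 5184, 5587 and 6906 in B16_IFNy and at 6806, 5668 and 8557 in B16 untreated.

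**Figure D5:**
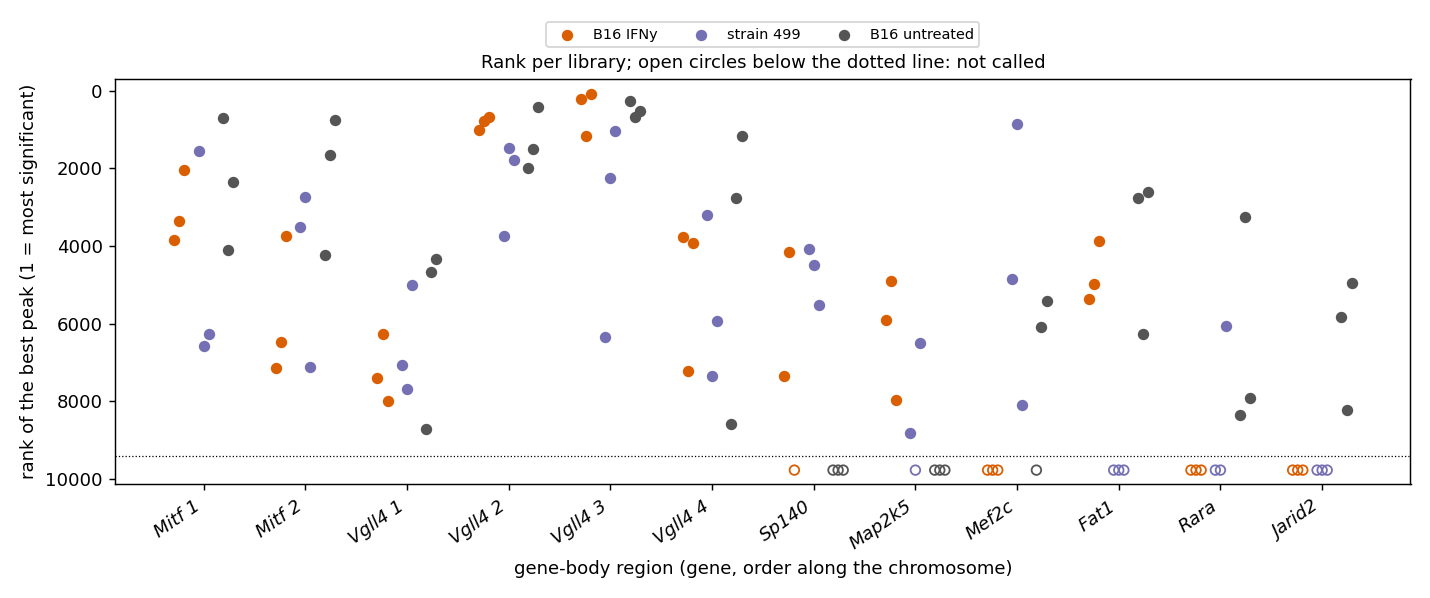
Rank of the best peak in each library (y axis, 1 is most significant, drawn downwards) for gene-body regions of the genes on the x axis, numbered along the chromosome where a gene has several, with B16 IFNy left, strain 499 in the middle and B16 untreated right; open circles below the dotted line mark libraries with no call. The regions were picked by their pattern of calls, so which libraries call them is given by the choice, and other regions of these genes are not drawn. The Mitf and Vgll4 regions drawn were picked for calls in all 9 libraries, and their ranks overlap between groups. The Sp140 and Map2k5 regions have no call in B16 untreated, that of Mef2c none in B16 IFNy, and that of Fat1 none in strain 499. The Jarid2 region is called in B16 untreated only.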

How the data were processed

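ATAC-seq libraries of 9 samples in 3 groups were analysed from the peak list of each library. The submitters' processing notes name Bowtie2 2.2.4, cutadapt 1.9, CASAVA and MACS2, and the build GRCm38 (mm10). Their roles and settings, the MACS2 version and whether reads were shifted for the transposase are not given in the sources used here. The deposited files give for each peak a score, a fold enrichment (a ratio), a −log10 p and a −log10 q, all made by the authors from single libraries with no pooling. They were used here only to rank, describe and filter peaks. Read counts are not in the lists, so the reads per library are unknown. A background was recovered from fold and p, with 99.97% to 100% of peaks matched within 0.01. A relative depth was its lowest value divided by the width of the shortest peak, taken as the fragment length.

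Peaks were ranked by −log10 p, and the best 9214 per library were kept, which is the number in the shortest list. Overlapping peaks were merged. Gene bodies and ends came from RefSeq for GRCm38, and promoter windows and their sequences from RefSeq for GRCm38.p6. A region was called in a library that held a peak in it. Rank was given within a list or as its percentile.

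One value per library was compared by two-sided exact permutation tests, within-library differences by exact sign-flip tests, and p-values were adjusted by the Benjamini-Hochberg method over 4 planned and over 13 pooled measures. The block of shortest-peak classes (cut at 150 bp) exchanged libraries within a class. Same-numbered replicates were not treated as pairs in the main tests, as the labels do not tie them to each other. However, 8 of 9 libraries correlated best with one of their own number. Exchange of libraries only within replicate number was therefore an alternative. The scripts ran on Python 3.11.15, numpy 2.4.6, pandas 2.3.3, SciPy 1.17.1 and matplotlib 3.10.9 and were tested on simulated data.

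The text names the 15 genes with the most regions, the 8 best-ranked gained and the 8 best-ranked lost regions per comparison, the 3 genes of each list with the most regions, the 5 best-ranked regions and 10 genes of interest. Tex14, Per1, Ldb1, Kdm6b, Gata2, Dock10, Tcf7l2, P4ha2, Kifap3, Kdm4c and Fgd4 fall outside this rule and were chosen after their values were seen. The members and lists were chosen with earlier results of these data known. Some items of the lists and motifs are not reported here. Alternatives were a longer or shorter list, ranking by fold, a peak covering 50% of its region, merging over 250 bp, a 2.5 kb end distance, a looser rule for gains and losses, and leaving out each library.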

Additional observations from a re-analysis of the deposited data

How the results depend on the processing

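Of the summary values under the alternatives, 380 stayed, 95 moved, 17 passed the threshold, 7 reversed and 2 no longer passed it. In pooled and within-library tests, staying meant the same direction and the same side of the threshold. For pairs of groups it meant a value within the SD between libraries of the main value, whatever its sign. For counts it meant within 1.5 times. Only the pooled and within-library tests could be labelled as reversed or as passing the threshold. Of 1590 values for 106 named genes, 158 moved. Same-numbered libraries correlated at -0.0363 to 0.111 over 4481 regions, 8 of 9 best with their own number. With the replicate block (27 arrangements) the exact permutation p was 0.037, the smallest possible, for the rank over regions in all libraries (3.35), the log2 width ratio (-0.0503), the share at internal starts (4.48) and the count away from them (-201). By the same test it was 0.0741 for the share in gene bodies and 0.111 for genes with 2 or more regions. For the rank of all gene-body peaks it was 0.444 and for the count at internal starts 0.630. Within shortest-peak classes the log2 width ratio was 0.00104. With all deposited peaks the share in gene bodies differed by -7.15 points in B16_IFNy, -9.36 in strain 499, -2.21 between these and -8.26 pooled, and width by -55, -57.5 and -56.25 bp (p = 0.262 by exact permutation for the last). There the log2 width ratio was 0.23, the share at internal starts 11.3 and the count away -3034.5. Gains and losses were 1 and 342 in B16_IFNy, 3 and 540 in strain 499, with 51 lost against B16_IFNy and 194 lost in both, and 1298 genes had 3 or more regions. With 4607 peaks per library gains and losses were 4 and 11 in B16_IFNy, 6 and 14 in strain 499, 2 and 9 for strain 499 against B16_IFNy, with 2 lost in both and 33 genes. The log2 width ratio was 0.0216, the share at internal starts 6.44, and the rank differences 3.34 for B16_IFNy and -2.43 for strain 499 against B16_IFNy. Ranking by fold gave rank differences from B16 untreated, over regions in all libraries, of -0.127 in B16_IFNy, -1.18 in strain 499 and -0.653 pooled. Over all gene-body peaks they were 2.23 in B16_IFNy and 2.31 in strain 499, and 0.0814 for strain 499 against B16_IFNy. It also gave a difference of 6.17 points in the share at internal starts, -259.5 in the count away, 24 gained in B16_IFNy and 3 gained in both. Requiring 50% coverage gave rank differences over regions in all libraries of -0.879 in B16_IFNy, 0.725 in strain 499 and -0.0769 pooled. Over all gene-body peaks these were -3.29, -1.31 and -2.30 (exact permutation p = 0.0476 for the last), and 1.98 for strain 499 against B16_IFNy. The count away was -471, with gains and losses of 6 and 73 in B16_IFNy and of 3 and 107 in strain 499, 3 gained against B16_IFNy and 34 lost in both. Merging over 250 bp gave 4.66 at internal starts. The 2.5 kb distance gave 4.81 there, 4.62 for the pooled rank over regions in all libraries and 0.188 for the rank of strain 499 against B16_IFNy. The looser rule gave 99 gained and 177 lost in B16_IFNy, 93 and 258 in strain 499, 91 and 162 in strain 499 against B16_IFNy, and 7 and 95 in both. Leaving out 1 library, which loosens the rule by construction, gave 13 to 44 gained and 23 to 106 lost in B16_IFNy, 10 to 45 and 50 to 172 in strain 499, 8 to 39 and 18 to 70 against B16_IFNy, and 0 to 5 and 14 to 65 in both. It gave -217 to -131 bp for width, -238 to -154 away, 3.54 to 5.19 at internal starts, -2.26 to -1.40 for the share, -0.107 to 0.00176 for the log2 width ratio and 228 to 242 genes. Where no value shows it, the cause was not tested. The number of 3 libraries per group limits all of these.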
